A study of Mus musculus with 40 samples.

Results

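Type I interferon stimulated genes were examined in EMT-6 tumors of mice given PD-L1 blockade, a TGF-β trap, or both. The set holds 47 genes listed by symbol, and each had to be matched to an Ensembl mouse gene with a mean of at least 0.5 CPM (counts scaled to the size of the library) over all libraries. All 47 met this rule, among 39012 genes in the tables and 14529 genes with that mean level. The members that passed with the lowest mean CPM were Mx2 at 4.91, Ifit3b at 5.51 and Mx1 at 6.10, so none lay near the minimum, and Lgals3bp had the highest mean CPM at 94.1.

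EMT-6 is a mouse mammary carcinoma line, here grown in the mammary pad of female Balb/C mice that were 8 to 12 weeks old. Bulk RNA was sequenced from 40 tumors, 1 library for each mouse. The mice had intravenous doses on days 0, 1 and 2 and their tumors were collected on day 6; day 0 fell 20 days after inoculation, at a mean volume near 400 mm3. A group of 10 mice received 400 µg of an inactive anti-PD-L1 isotype control ("isotype control"). Another 10 received 492 µg of a fusion with a TGF-β trap whose PD-L1 arm was labelled as mutated ("trap control"), 10 received 400 µg of anti-PD-L1, and 10 received 492 µg of the anti-PD-L1/TGF-β trap fusion ("bifunctional"). No group was left without an injected protein, so every control here carries an antibody or a fusion protein.

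The libraries C0449 to C0464 and C0465 to C0488 were kept apart as set 1 and set 2. Set 1 held the 10 isotype control libraries and 6 trap control libraries, and set 2 held 4 trap control, 10 anti-PD-L1 and 10 bifunctional libraries. The labels name no batch, but 7SL and mitochondrial ribosomal RNA took 29.7% to 62.3% of the counts in set 1 and 11.7% to 18% in set 2. Each library held between 13495835 and 27658263 expected counts, with a median of 24018639. The tumor epithelial keratin Krt8 was detected in every library, with group medians from 266.7 to 451.2 CPM. Epcam and Cdh1, the epithelial surface markers, had group medians of at most 8.46 and 6.27 CPM. Some libraries stood apart by host tissue transcripts. Skeletal muscle markers summed to 2862 CPM in the bifunctional library C0484 and to 1353 CPM in C0479, which also held 1805 CPM of skin keratinocyte markers, and to 7253 CPM in the trap control library C0463. Results of the comparisons that use these libraries are given with and without them.

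Type I interferons are secreted proteins that bind a receptor made of IFNAR1 and IFNAR2 on almost every cell. The receptor's kinases activate a complex called ISGF3, which holds STAT2 and IRF9 among its subunits and binds interferon-stimulated response elements in the promoters of many genes. The induced proteins detect foreign nucleic acid, block viral translation and replication, and include IRF7 and STAT2 themselves, which carry the response forward. In tumors this gene group is known as a readout of interferon made by malignant, stromal or immune cells, and interferon-gamma induces part of it too.

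Some promoters of these genes hold known interferon response motifs. The core of the interferon-stimulated response element was searched as 2 copies of GAAA with any 2 bases between them, on both strands, in the 250 bases before each RefSeq transcript start, with overlapping matches allowed. It was present in 13 of the 35 members with a RefSeq window, or 37.1%, against 936 of all 27025 genes, or 3.46%. The gamma-activated site TTCNNNGAA, an element of genes that answer to interferon-gamma, was present in 4 of 35 members, or 11.4%, against 8.13% of all genes. Both motifs were found in Bst2, where they overlapped, and in Oas1a, and neither was found in 20 members. Below are 90 bases from the promoters of 6 members with the response element core, chosen because they span members that rose and one that did not pass the test; capitals mark the matches, read 5′ to 3′ on the strand of the gene, in GRCm38.p6 from RefSeq.
Ifit1, chr19:34640764-34640853, plus strand: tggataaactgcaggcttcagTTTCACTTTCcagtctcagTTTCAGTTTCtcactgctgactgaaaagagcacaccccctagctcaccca
Ifit3, chr19:34583367-34583456, plus strand: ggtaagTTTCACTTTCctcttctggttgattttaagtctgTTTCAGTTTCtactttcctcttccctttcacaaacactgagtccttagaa
Ifit3b, chr19:34607763-34607852, plus strand: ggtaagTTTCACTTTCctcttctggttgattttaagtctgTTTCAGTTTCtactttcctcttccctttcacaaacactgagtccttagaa
Oas3, chr5:120777685-120777774, minus strand: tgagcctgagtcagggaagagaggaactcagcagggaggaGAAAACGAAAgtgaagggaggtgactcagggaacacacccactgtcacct
Stat2, chr10:128270248-128270337, plus strand: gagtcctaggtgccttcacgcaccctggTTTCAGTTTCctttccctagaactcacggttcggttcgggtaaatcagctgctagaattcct
Isg15, chr4:156200835-156200924, minus strand: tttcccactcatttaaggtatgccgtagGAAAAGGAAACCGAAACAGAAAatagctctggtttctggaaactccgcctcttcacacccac
Isg15 held 3 overlapping matches, and Ifit1, Ifit3 and Ifit3b held 2 each. The printed stretches of Ifit3 and Ifit3b are identical. The nearest match lay 66 bases before the start in Isg15, 75 in Oas3, 85 in Ifit1, 122 in Ifit3, 154 in Ifit3b and 222 in Stat2. These are matches of letters and were not tested for binding.

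Bifunctional and anti-PD-L1 tumors, both in set 2, were compared to ask what the trap brings beyond blocking PD-L1. Interferon stimulated genes were higher in bifunctional tumors: 28 of the 47 members rose and none fell, with an adjusted p under 0.05 in edgeR's quasi-likelihood test adjusted over all genes. Among all 15704 genes tested, 12.4% were called higher and 13.1% lower. The median log2 fold change of the members was 0.40, against 0.01 over all genes, and 45 of 47 had a fold change above 0. In no member did every bifunctional library lie above every anti-PD-L1 library, which 0.0573% of all genes did. The groups overlapped for every member in the other comparisons inside a set as well, where 0.267% (bifunctional over trap control), 0.197% (trap control over anti-PD-L1) and 0.451% (trap control over isotype control) of all genes did not overlap. Since the tumors were sequenced in bulk, more cells of a type and more RNA per cell cannot be told apart in any of these values.

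**Figure D1:**
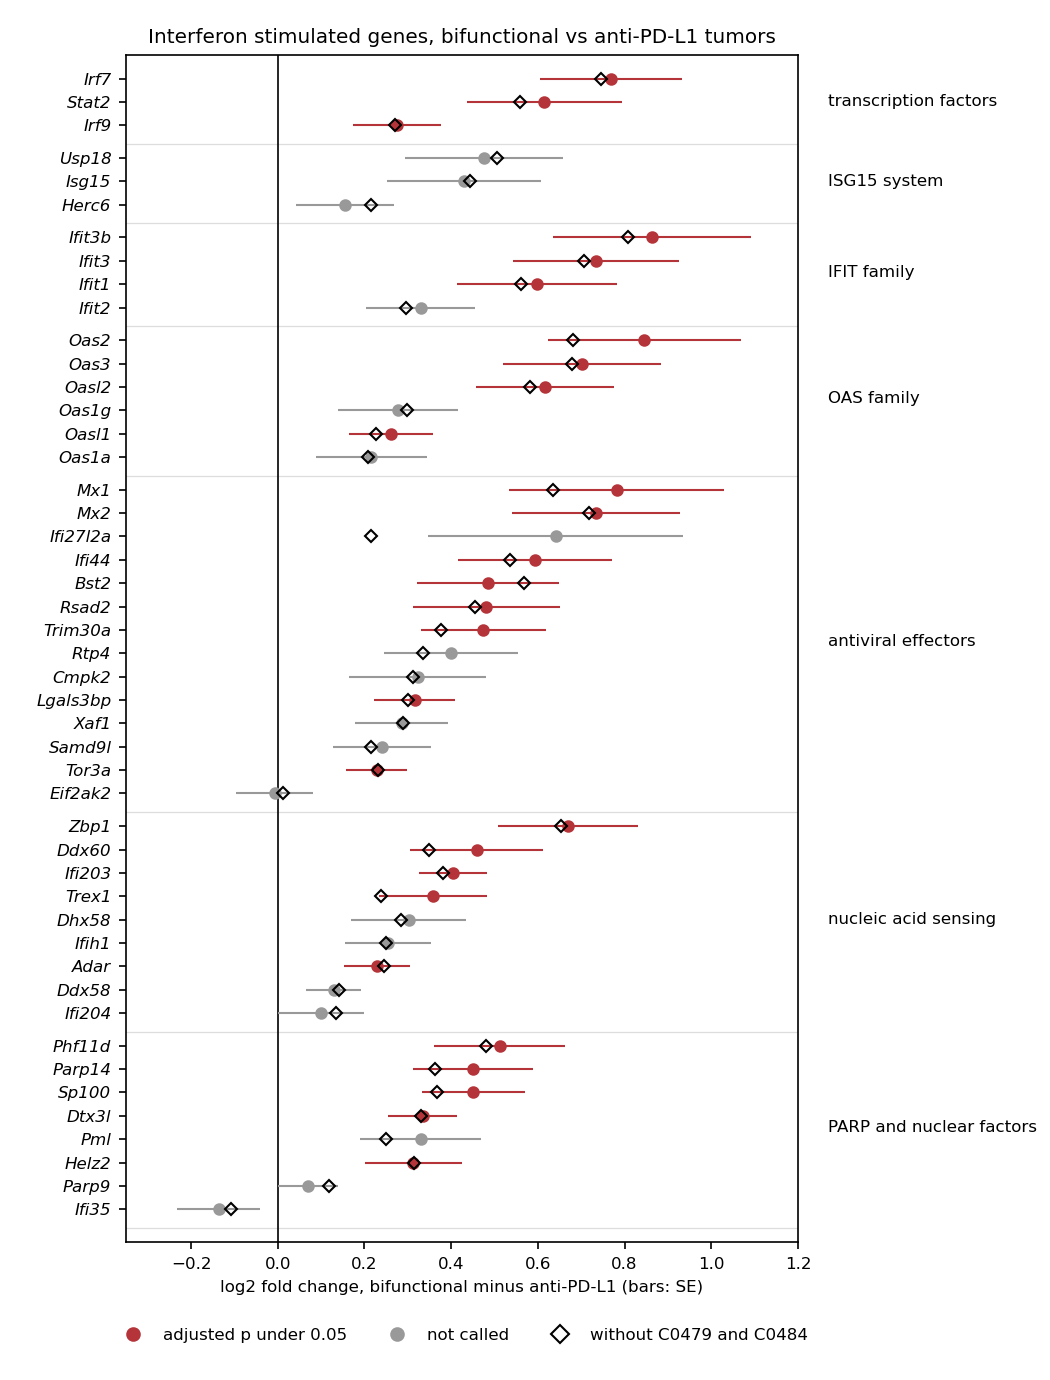
Log2 fold changes (x axis) of the 47 members, bifunctional minus anti-PD-L1, in the 24 libraries of set 2, by functional group (right). Bars are standard errors, red points have an adjusted p under 0.05, grey points do not, and diamonds give the fold change without the libraries C0479 and C0484. The points run from -0.14 for Ifi35 to 0.86 for Ifit3b, and 45 of 47 lie right of 0.

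The counts given below for each functional group stand against 12.4% of all genes called higher in this comparison. All 3 transcription factors rose. Irf7, the factor that drives the amplification of type I interferon genes (chr7:141262706-141266481), ran from 36.9 to 71.9 CPM in bifunctional tumors with a median of 50.6, and from 18.1 to 45.0 with a median of 31.7 in anti-PD-L1 tumors. Every bifunctional library exceeded the anti-PD-L1 median, although the ranges overlapped. The means were 52.32 ± 10.02 and 30.01 ± 7.91 CPM (SD, n = 10 each), a log2 fold change of 0.77 (SE 0.16, adjusted p = 0.00584).

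Stat2, a subunit of ISGF3, had a median of 44.5 CPM (32.6 to 59.6) with the bifunctional protein and 30.1 (11.1 to 39.8) with anti-PD-L1. Again all 10 bifunctional libraries stood above the anti-PD-L1 median. The log2 fold change was 0.61 (SE 0.18, adjusted p = 0.0192). Irf9, the DNA-binding subunit of that complex, had closer ranges, at 26.1 to 41.7 CPM (median 32.7) against 19.1 to 33.3 (median 26.7). Its log2 fold change of 0.27 (SE 0.10) passed narrowly, with an adjusted p of 0.0486. Leaving out a single library ended the call of Irf9 for 15 of the 20 libraries of the 2 groups (C0469 to C0476, C0479 to C0482, C0484, C0486 and C0488), with adjusted p from 0.0511 to 0.0847.

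**Figure D2:**
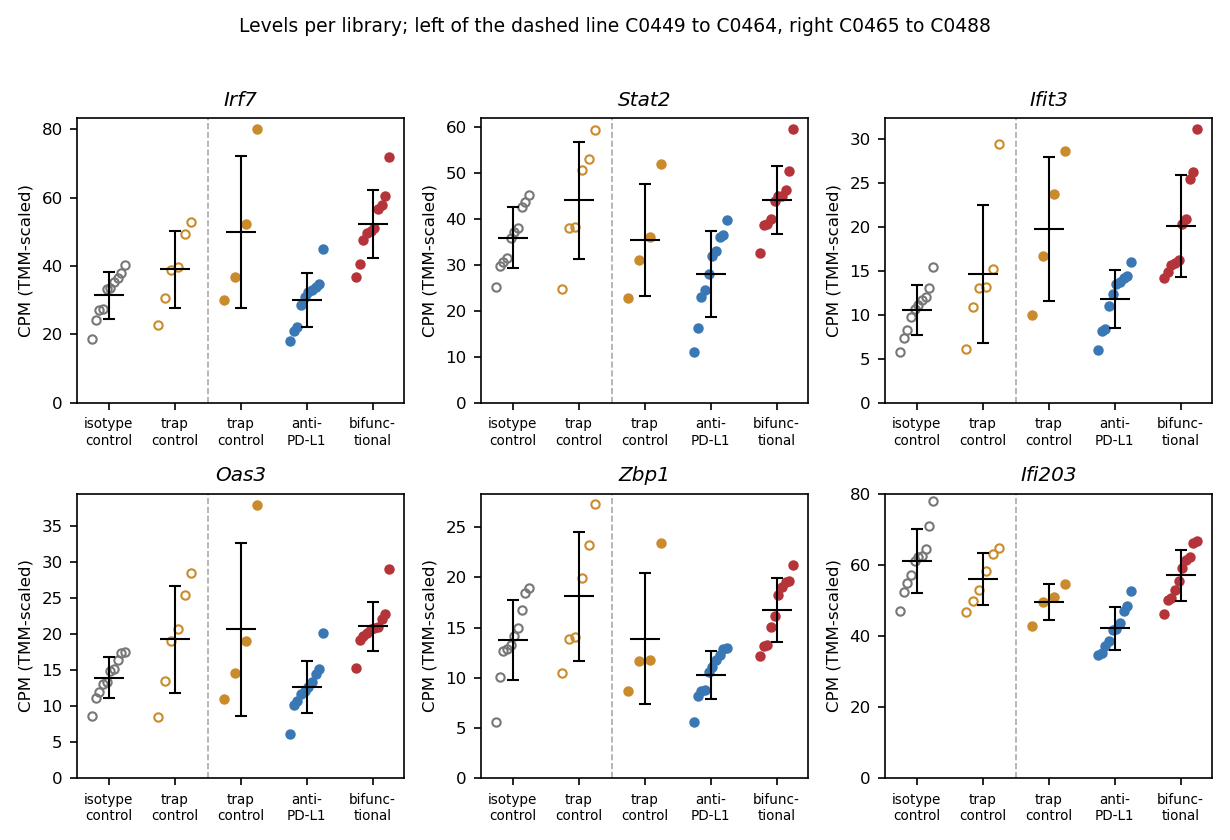
TMM-scaled CPM (y axis) of 6 members in each of the 40 libraries, by treatment group (x axis). Open circles left of the dashed line are set 1, filled circles right of it are set 2, and the black marks give the mean and SD. All 10 bifunctional libraries lie above the anti-PD-L1 median of each of the 6 genes, and the 4 trap control libraries of set 2 are spread widely.

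None of the 3 members of the ISG15 system passed the test. Isg15, a ubiquitin-like protein that is joined to other proteins, had 10.4 to 19.7 CPM (median 16.8) in bifunctional and 4.59 to 15.1 (median 10.98) in anti-PD-L1 tumors. Its log2 fold change was 0.43 (SE 0.18, adjusted p = 0.0739). Usp18, the protease that removes ISG15 and dampens receptor signaling, stood at 12.96 to 24.1 CPM (median 17.8) against 8.52 to 18.3 (median 12.8), a log2 fold change of 0.48 (SE 0.18, adjusted p = 0.0555). All 10 bifunctional libraries exceeded the anti-PD-L1 median of Usp18 and 9 did so for Isg15. Herc6, the mouse ligase for ISG15, ran from 25.2 to 43.2 CPM (median 36.9) against 26.2 to 36.4 (median 31.4), with a log2 fold change of 0.15 (SE 0.11, adjusted p = 0.312).

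Of the IFIT family, whose proteins bind viral RNA and lie side by side on chromosome 19, 3 of 4 rose. Ifit3 had 14.2 to 31.2 CPM (median 18.3) in bifunctional and 6.06 to 16 (median 12.97) in anti-PD-L1 tumors, a log2 fold change of 0.73 (SE 0.19, adjusted p = 0.0126). Ifit3b, its near copy, had 4.71 to 12.0 CPM (median 6.43) against 2.00 to 5.41 (median 4.23). For Ifit3b the log2 fold change was 0.86 (SE 0.23, adjusted p = 0.0130). These genes share 51.2% of the 50-base stretches of Ifit3, so the split of reads between them is uncertain.

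Ifit1, which binds RNA that lacks a host cap, had 16.1 to 34.2 CPM (median 20.1) against 8.29 to 18.5 (median 14.3). Its log2 fold change was 0.60 (SE 0.18, adjusted p = 0.0240), and the adjusted p was 0.0519 without C0484. Ifit2 did not pass, at 26.9 to 53.9 CPM (median 33.7) against 21.3 to 34.1 (median 28.3), with a log2 fold change of 0.33 (SE 0.13, adjusted p = 0.0556). All 4 genes of the family therefore had positive fold changes, with a median of 0.67.

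The OAS family makes the messenger that activates RNase L, and 4 of its 6 members rose. Oas2 had the highest log2 fold change of the family, 0.85 (SE 0.22, adjusted p = 0.0129), at 9.34 to 24.8 CPM (median 13.2) in bifunctional and 3.31 to 12.2 (median 7.37) in anti-PD-L1 tumors. Oas3, which prefers long double-stranded RNA, had 15.3 to 28.9 CPM (median 20.8) against 6.09 to 20.1 (median 12.4), a log2 fold change of 0.70 (SE 0.18, adjusted p = 0.0123). For both genes each bifunctional library exceeded the anti-PD-L1 median, with ranges that overlapped.

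Oasl2 and Oasl1 are OAS-like proteins encoded by neighbouring genes on chromosome 5. Oasl2 had 26.2 to 46.98 CPM (median 34.4) against 11.5 to 30.5 (median 22.7), a log2 fold change of 0.62 (SE 0.16, adjusted p = 0.0121). Oasl1, a translational inhibitor of Irf7, had 17.3 to 28.9 CPM (median 19.3) against 14.3 to 19.9 (median 15.4), a smaller log2 fold change of 0.26 (SE 0.10, adjusted p = 0.0482). The call of Oasl1 was lost without any 1 of 14 libraries (C0469 to C0476, C0479 to C0481, C0484, C0485 and C0488), with adjusted p from 0.0519 to 0.0963.

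The remaining OAS genes, Oas1a and Oas1g, did not pass. Oas1a had 21.9 to 42.5 CPM (median 27.95) against 19.9 to 34.0 (median 24.8) and a log2 fold change of 0.22 (SE 0.13, adjusted p = 0.204). Oas1g had 9.34 to 16.6 CPM (median 13.6) against 6.41 to 14.03 (median 11.2) and a log2 fold change of 0.28 (SE 0.14, adjusted p = 0.133). They share 57.6% of the 50-base stretches of Oas1a, so the division of reads between these 2 genes is uncertain as well.

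Among 14 antiviral effectors, 8 rose: Mx1, Mx2, Rsad2, Bst2, Ifi44, Lgals3bp, Tor3a and Trim30a. Mx2, a dynamin-like GTPase annotated as a polymorphic pseudogene in the mouse reference, had 4.13 to 7.35 CPM (median 4.60) in bifunctional and 1.41 to 4.23 (median 3.21) in anti-PD-L1 tumors. The ranges touched only at their ends, and the log2 fold change was 0.73 (SE 0.19, adjusted p = 0.0133). Ifi44 had 30.7 to 67.7 CPM (median 37.9) against 14.7 to 35.3 (median 28.02), a log2 fold change of 0.59 (SE 0.18, adjusted p = 0.0209). Lgals3bp, a secreted glycoprotein, had 89.5 to 127.2 CPM (median 103.0) against 71.7 to 103.7 (median 81.9), a log2 fold change of 0.32 (SE 0.09, adjusted p = 0.0200).

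The other effectors that rose had log2 fold changes from 0.23 for Tor3a to 0.78 for Mx1, with Trim30a, a TRIM protein that restrains inflammatory signaling, at 0.47 (adjusted p = 0.0233). Mx1, a gene related to Mx2, moved from a mean of 4.11 ± 1.46 to 7.26 ± 3.20 CPM (SD, n = 10 each). Its adjusted p changed from 0.0268 to 0.0649 without C0484, which held 15.8 CPM. Bst2, or tetherin, which holds budding virions at the cell surface, had a log2 fold change of 0.49 (SE 0.16, adjusted p = 0.0338), lost without any 1 of C0469, C0470, C0471, C0474 and C0480 (adjusted p 0.0521 to 0.0539). Rsad2, or viperin, which makes a chain-terminating nucleotide, had one of 0.48 (SE 0.17, adjusted p = 0.0408), lost without any 1 of 9 libraries (C0470, C0471, C0474, C0475, C0479, C0480, C0481, C0484 and C0486; adjusted p 0.0533 to 0.0804).

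The effectors that did not pass included 3 with adjusted p over 0.11. Eif2ak2, the kinase PKR that halts translation on double-stranded RNA, had 44.0 to 73.5 CPM (median 59.0) against 46.3 to 64.7 (median 58.0). Its log2 fold change was -0.01 (SE 0.09, adjusted p = 0.963), and 5 of 10 bifunctional libraries exceeded the anti-PD-L1 median. Cmpk2, the neighbour of Rsad2 on chromosome 12, had 15.6 to 29.3 CPM (median 20.8) against 9.45 to 20.9 (median 16.5), with a log2 fold change of 0.32 (SE 0.16, adjusted p = 0.127). Samd9l had 46.1 to 83.6 CPM (median 62.6) against 36.3 to 66.1 (median 52.6), with a log2 fold change of 0.24 (SE 0.11, adjusted p = 0.114). Rtp4 (0.40, adjusted p = 0.0582) and Xaf1 (0.29, adjusted p = 0.0525) came closer to the threshold. Ifi27l2a varied most, at 14.2 to 105.3 CPM in bifunctional tumors, and its log2 fold change of 0.64 (SE 0.29, adjusted p = 0.104) was 0.22 without C0479 and C0484.

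Of 9 genes for the sensing or clearance of nucleic acid, 5 rose. Ifi203, a member of the HIN-200 family of interferon-inducible nuclear proteins (chr1:173920407-173942672), had the smallest adjusted p of all members. Its level ran from 46.2 to 66.9 CPM (median 57.4) in bifunctional and from 34.8 to 52.9 (median 41.9) in anti-PD-L1 tumors. The log2 fold change was 0.40 (SE 0.08, adjusted p = 0.00437), and 12.2% of the 50-base stretches of Ifi203 occur in other genes. Zbp1, the sensor of Z-form nucleic acid that can start necroptosis (chr2:173206612-173218923), had 12.2 to 21.2 CPM (median 17.2) against 5.63 to 12.96 (median 10.9), a log2 fold change of 0.67 (SE 0.16, adjusted p = 0.00924).

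For Ifi203 and Zbp1 alike, all 10 bifunctional libraries exceeded the anti-PD-L1 median, and the ranges overlapped. Ddx60, a helicase linked to RNA sensing, had 20.97 to 48.9 CPM (median 32.6) against 17.3 to 34.0 (median 22.9), a log2 fold change of 0.46 (SE 0.15, adjusted p = 0.0326), and was not called without any 1 of C0470, C0471, C0474, C0479 and C0484 (adjusted p 0.0506 to 0.0695). Adar, the enzyme that edits adenosine in double-stranded RNA, had a log2 fold change of 0.23 (SE 0.08, adjusted p = 0.0332), lost without C0470, C0471 or C0484 (0.0505 to 0.0615). Trex1, a DNA exonuclease, had one of 0.36 (SE 0.12, adjusted p = 0.0375), lost without any 1 of 7 libraries (C0470, C0471, C0474, C0476, C0478, C0479 and C0484; 0.0514 to 0.0786). Trex1 shares 95.8% of its 50-base stretches with the overlapping gene Atrip, so its counts cannot be told apart from those of Atrip.

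The cytosolic RNA helicases Ddx58, Dhx58 and Ifih1 did not pass. Ddx58, which encodes RIG-I, had 58.0 to 81.7 CPM (median 67.3) against 51.0 to 66.1 (median 60.3) and a log2 fold change of 0.13 (SE 0.06, adjusted p = 0.134). Dhx58, or LGP2, had 16.5 to 25.6 CPM (median 20.0) against 10.2 to 20.9 (median 16.1) and one of 0.30 (SE 0.13, adjusted p = 0.0908), while Ifih1, or MDA5, had one of 0.25 (adjusted p = 0.0601). Ifi204, a relative of Ifi203 that also lies on chromosome 1, had 52.1 to 91.3 CPM (median 62.9) against 44.9 to 72.2 (median 63.0). Its log2 fold change was 0.10 (SE 0.10, adjusted p = 0.461), and 20% of its 50-base stretches occur in other genes.

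The PARP and nuclear group held 5 risers among 8 genes. Dtx3l, an E3 ligase that works in a complex with PARP9 (chr16:35926511-35939151), had 52.9 to 72.2 CPM (median 61.4) in bifunctional and 38.1 to 58.8 (median 47.8) in anti-PD-L1 tumors. Its log2 fold change was 0.33 (SE 0.08, adjusted p = 0.00896). Parp9 itself did not pass, at 60.5 to 81.7 CPM (median 68.3) against 54.3 to 75.2 (median 65.1) and a log2 fold change of 0.07 (SE 0.07, adjusted p = 0.464). The 2 genes overlap in part on opposite strands of chromosome 16, and the strand used in counting is not given in the sources used here.

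Sp100, a component of nuclear bodies, had 27.9 to 56.9 CPM (median 36.0) against 20.7 to 32.7 (median 26.2), a log2 fold change of 0.45 (SE 0.12, adjusted p = 0.0129). Phf11d had 12.2 to 25.3 CPM (median 15.3) against 6.59 to 15.3 (median 10.8), a log2 fold change of 0.51 (SE 0.15, adjusted p = 0.0197). In both, all 10 bifunctional libraries stood above the anti-PD-L1 median. Parp14, an ADP-ribosyltransferase, rose by a log2 fold change of 0.45 (SE 0.14, adjusted p = 0.0234), lost without C0479 or C0484 (0.0503 to 0.0518). Helz2, a nuclear helicase and coactivator, rose by 0.31 (SE 0.11, adjusted p = 0.0431), lost without any 1 of 11 libraries (C0469, C0470, C0471, C0474, C0475, C0479, C0481, C0484, C0485, C0486 and C0488; 0.0510 to 0.0796).

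Pml, the organizer of nuclear bodies, had 15.6 to 34.5 CPM (median 22.4) against 9.55 to 23.8 (median 19.8), with a log2 fold change of 0.33 (SE 0.14, adjusted p = 0.0821). Ifi35 was the member with the lowest fold change, at 13.4 to 21.8 CPM (median 17.1) against 15.0 to 23.7 (median 17.8), with a log2 fold change of -0.14 (SE 0.10, adjusted p = 0.285). Only 3 bifunctional libraries exceeded the anti-PD-L1 median of Ifi35.

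Members with the response element core in the promoter were called in 10 of 13 cases, with a median log2 fold change of 0.48. Members with a window but no core were called in 12 of 22 cases (median 0.31), and members without a RefSeq window in 6 of 12 (median 0.46). Over all genes 12.4% were called higher. Ifit3 and Ifit3b, which share sequence, were both among the called members with the core. These counts describe the members and the difference between them was not tested.

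Several calls were lost when few libraries were left out, which also makes the groups smaller. Without C0479 and C0484, 8 members remained called, all among the 28: Irf7, Ifit3, Ifit3b, Oas3, Mx2, Zbp1, Ifi203 and Dtx3l. Over all genes 1.87% were called higher without these libraries, against 12.4% with them. The median log2 fold change of the members was then 0.33, and 46 of 47 lay above 0. Without C0484 alone 18 members were called, against 6.64% of all genes. With scores of skeletal muscle, skin and adipocyte markers as covariates 5 members were called, all among the 28 (Irf7, Bst2, Zbp1, Ifi203 and Dtx3l), with a median log2 fold change of 0.26 and 1.54% of all genes called higher. In each of the 20 fits that left out 1 library of either group, 17 of the 28 members stayed called; the 11 that lost the call in at least 1 fit are named above.

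Markers of other cells differed between the same groups. Over all genes 12.4% were called higher and 13.1% lower in this comparison, and 1.87% were called higher without C0479 and C0484. Of 10 macrophage markers 7 rose, with summed levels of 833 to 2150 CPM (median 1258) in bifunctional and 685 to 1179 (median 882) in anti-PD-L1 tumors, and C0484 and C0479 were the highest libraries at 2150 and 2063 CPM. Of 9 T cell markers tested 7 rose, although the summed level was only 4.01 to 13.5 CPM against 1.44 to 4.85. All 6 skeletal muscle markers rose, from 0.57 to 154.5 CPM in anti-PD-L1 to 0.83 to 2862 CPM in bifunctional tumors. Counts called without C0479 and C0484 were 1 of 10 for macrophages, 5 of 9 for T cells and 0 of 6 for muscle. The median log2 fold changes were then 0.39, 1.12 and 0.45. NK cell markers were called in 3 of 5 cases and plasmacytoid dendritic cell markers in 3 of 6, and in 1 and 0 cases without the 2 libraries. Conventional dendritic cell markers were called higher in 2 of 6 cases, fibroblast markers in 2 of 6, skin keratinocyte markers in 2 of 2, endothelial markers in 1 of 4, adipocyte markers in 1 of 5 and the B cell marker tested in 1 of 1, and neutrophil markers in 0 of 4. Of the 4 tumor epithelial markers Krt8 fell, from 460.8 ± 129.4 to 310.7 ± 75.7 CPM (SD, n = 10 each; log2 fold change -0.59, adjusted p = 0.0142), and Cdh1 rose by 1.46 (adjusted p = 0.0340). Leaving out C0479 and C0484 gave 1 call each for fibroblast and endothelial markers and 0 for the other lists just named, the tumor epithelial one included, and no B cell marker then passed the filter on low counts. The part of these cells in the interferon stimulated genes was not tested.

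The interferons themselves were near or below detection. Of 21 interferon genes listed 17 were in the tables, and none passed the filter on low counts in set 2. Of the 16 type I and type III genes, 5 had no count in any of the 40 libraries, and the highest count of any in 1 library was 9. Ifnb1, the interferon made first by most cells, had 36 counts in 17 of the 40 libraries, with means of 0.0455 CPM in bifunctional and 0.0033 CPM in anti-PD-L1 tumors, too few to compare. Ifnk had more, 163 counts in 37 libraries and at most 1.01 CPM, and Ifne had 48 counts in 19 libraries. Ifng had 117 counts in 28 libraries.

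Receptors and signaling genes moved with smaller fold changes: 6 of 10 rose and none fell, with a median log2 fold change of 0.21. Over all genes 12.4% were called higher and 13.1% lower. Ifnar1 rose from 50.1 ± 3.12 to 59.4 ± 7.39 CPM (SD, n = 10 each), a log2 fold change of 0.21 (SE 0.06, adjusted p = 0.0147). Ifnar2 rose by 0.22 (SE 0.08, adjusted p = 0.0397), as did the interferon-gamma receptor genes Ifngr1 and Ifngr2 by 0.24 each (adjusted p = 0.0341 and 0.0242). Il10rb and Ifnlr1 rose too, by 0.34 and 1.87, the latter from a mean of only 0.185 CPM. The kinases Jak1, Jak2 and Tyk2 and the factor Stat3 did not pass (adjusted p 0.0625 to 0.413). Without C0479 and C0484 none of the 10 was called, with a median of 0.18, against 1.87% of all genes called higher.

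Other sensors and adaptors had 8 of 17 members called higher, against 12.4% of all genes. They were the endosomal receptors Tlr3, Tlr7, Tlr8 and Tlr9, the chaperone Unc93b1 that moves them to endosomes, the adaptor Ticam1, and the factors Irf5 and Irf8. Tlr9, a sensor of DNA found on macrophages and dendritic cells, rose by 1.28 (SE 0.33, adjusted p = 0.0124), and Ticam1 by 0.32 (SE 0.08, adjusted p = 0.00925). The cytosolic DNA sensor Cgas, its adaptor Tmem173 (STING), Mavs and Irf3 did not pass, with log2 fold changes of -0.23, 0.02, 0.11 and -0.10. A list of regulators and modifiers of the pathway holds inhibitors such as Socs1 beside ISG15-conjugating enzymes such as Uba7. It was called in 3 of 15 cases (Pias1, Ptpn6 and Rnf125), against 12.4% of all genes called higher and 13.1% lower. This share was not above that of all genes called in either direction. Socs1 was not among them (0.23, adjusted p = 0.144). Without C0479 and C0484, 1 of the 17 and 0 of the 15 were called, against 1.87% of all genes called higher.

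Genes known mainly for induction by interferon-gamma were called in 9 of 22 cases, against 12.4% of all genes called higher and 13.1% lower. The chemokines Cxcl9, Cxcl10 and Cxcl11, which draw T cells, rose by log2 fold changes of 1.25, 0.70 and 1.00 (adjusted p = 0.0314, 0.0314 and 0.0120). Ciita, the activator of MHC class II genes, rose by 0.98 (adjusted p = 0.0185), and Cd274, which encodes PD-L1, by 0.74 (adjusted p = 0.0440). The GTPases Igtp, Irgm1, Irgm2 and Iigp1 made up the rest, at 0.36 to 0.87. Irf1 and Gbp2 did not pass, at 0.00 and 0.10, and Psmb8 was at -0.22 (adjusted p = 0.120). Without C0479 and C0484, 1 of the 22 was called, with a median log2 fold change of 0.50, against 1.87% of all genes called higher.

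Bifunctional tumors were set against trap control tumors of set 2 to ask what PD-L1 binding adds to the trap. No member passed the test, and 0.00637% of all genes were called higher. The median log2 fold change of the members was 0.05, against 0.03 over all genes, and 28 of 47 lay above 0. In edgeR 1 member was higher and 0 lower at an unadjusted p under 0.05, against 6.82% and 8.63% of all genes, and DESeq2 called none. Dtx3l had the smallest adjusted p, with 61.7 ± 6.57 CPM (SD, n = 10) in bifunctional tumors and 43.7, 51.1, 52.2 and 61.1 CPM in the 4 trap control tumors, a log2 fold change of 0.22 (SE 0.11, adjusted p = 0.319). Ifi203 followed at 0.18 (SE 0.10, adjusted p = 0.381) with trap control values of 43.0, 49.7, 51.1 and 54.9 CPM, then Trim30a at 0.33 (SE 0.19, adjusted p = 0.393), Sp100 at 0.24 (SE 0.16, adjusted p = 0.447) and Oas2 at 0.41 (SE 0.30, adjusted p = 0.472). Without C0479 and C0484 no member was called either, and the median was 0.01.

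Trap control tumors were then set against anti-PD-L1 tumors within set 2. No member passed, with 0.0127% of all genes called higher, although 46 of 47 log2 fold changes lay above 0 and their median was 0.32, against -0.01 over all genes. By unadjusted p under 0.05 edgeR found 20 members higher and 0 lower, against 2.27% and 2.64% of all genes, and DESeq2 called none. This comparison and both preceding ones share libraries, so their values are given side by side and are not independent. Irf7 had 30.0, 36.9, 52.4 and 80.2 CPM in the trap control tumors against a median of 31.7 with anti-PD-L1, a log2 fold change of 0.72 (SE 0.21, adjusted p = 0.694). Rsad2 had 21.1, 23.7, 42.3 and 48.0 CPM (0.68, SE 0.22, adjusted p = 0.734), and Tor3a had 37.6, 44.8, 48.0 and 52.9 CPM (0.29, SE 0.09, adjusted p = 0.734). Ifit3 and Ifit3b had log2 fold changes of 0.73 (SE 0.24) and 0.87 (SE 0.29), both with an adjusted p of 0.768.

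The 4 trap control libraries of set 2 differed widely from each other, and in the same order for most members. C0465 was the highest of the 4 for 42 members and C0466 the lowest for 44. Of the 47 members, 47, 7, 45 and 41 exceeded the anti-PD-L1 median in C0465, C0466, C0467 and C0468. The summed CPM of the members was 2112, 1151, 1708 and 1428 in that order, against 1056 to 1570 (median 1362) with anti-PD-L1 and 1368 to 2267 (median 1721) with the bifunctional protein. Macrophage markers summed to 1018, 693.9, 829.8 and 1040 CPM, within the anti-PD-L1 range, and T cell markers to 8.70, 4.29, 4.80 and 4.67 CPM, highest in C0465.

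**Figure D3:**
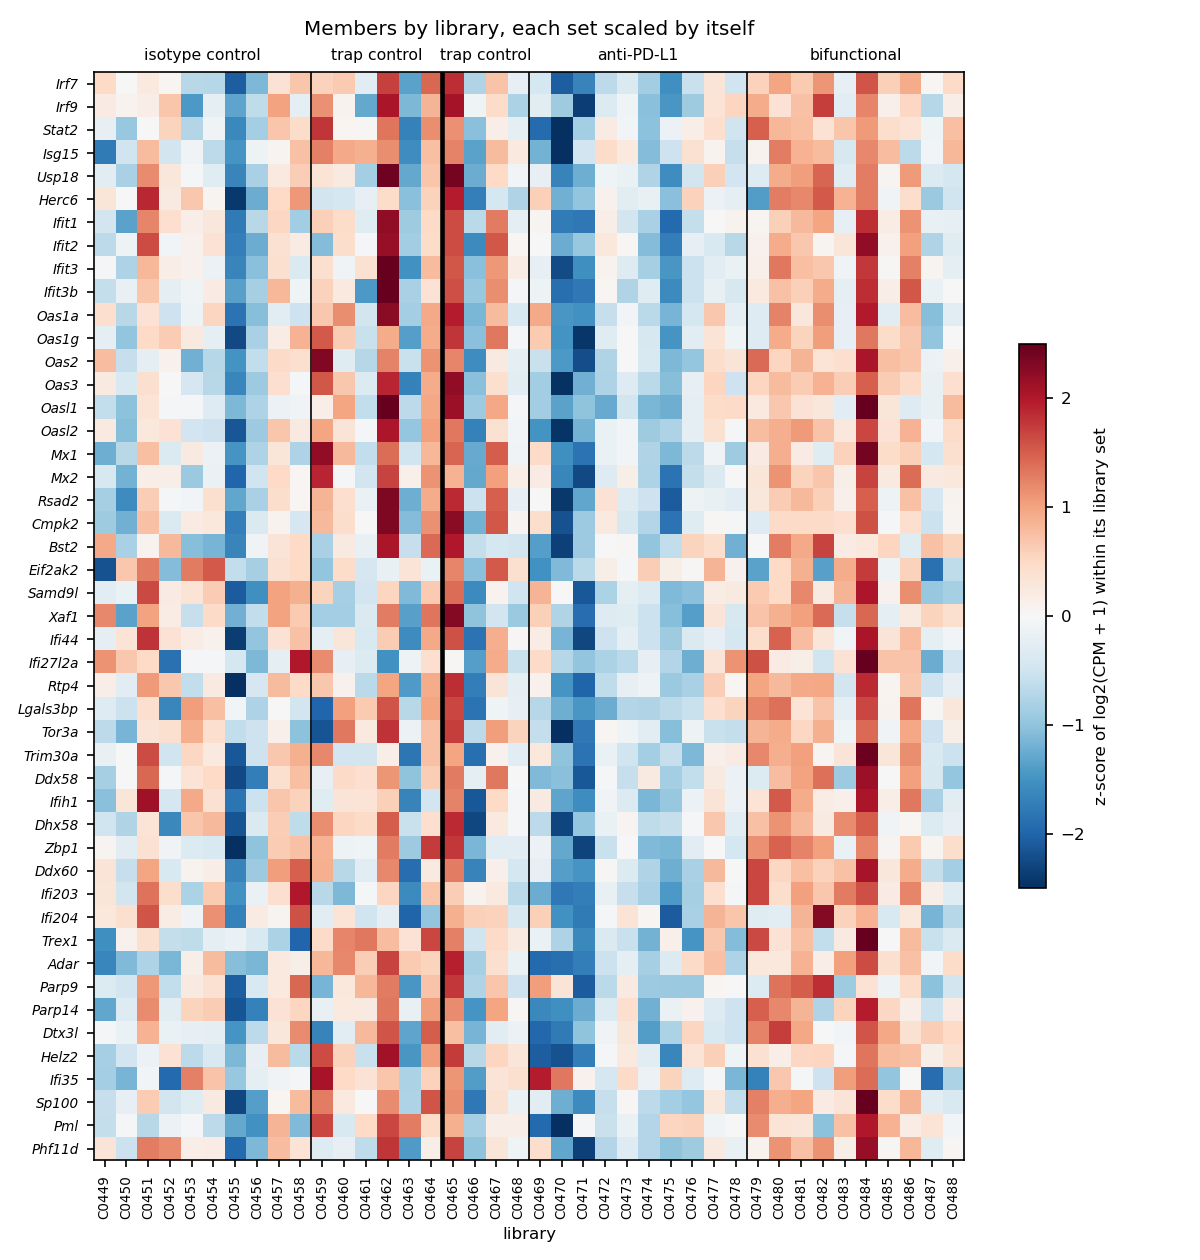
Each row is a member and each column a library; color is the z-score of log2(CPM + 1) computed within set 1 (left of the thick line) or within set 2 (right of it). Whole columns share a color: C0465 and C0484 are high for most members, and C0455, C0463, C0466, C0470 and C0471 are low.

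The same column-wise pattern held in the other groups. Among bifunctional libraries C0484 was the highest for 36 members and C0487 the lowest for 24, and between 30 and 47 members (median 43.5) exceeded the anti-PD-L1 median in each. Among anti-PD-L1 libraries C0477 was the highest for 19, and C0471 and C0470 were the lowest for 20 and 18. In the isotype control group C0451 was the highest for 19 members and C0455 the lowest for 35. Among the trap control libraries of set 1 C0462 was the highest for 27 and the muscle-rich C0463 the lowest for 33. The coefficient of variation of a member within a group had a median of 18.9% in bifunctional, 20.9% in anti-PD-L1, 32.5% and 26.8% in trap control (set 2 and set 1) and 20.5% in isotype control tumors.

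The trap control was compared with the isotype control in set 1, the comparison that holds the trap alone against an inactive antibody. Trex1 and Adar rose, 2 of 47 members, against 3.19% of the 14183 genes tested called higher. The share of members called higher was near that of all genes. No member fell, and 4.15% of all genes did. The median log2 fold change of the members was 0.24, against 0.02 over all genes, and 35 of 47 lay above 0. All 6 OAS genes, all 4 IFIT genes and all 3 transcription factors had positive fold changes that did not pass, with medians of 0.41, 0.36 and 0.29.

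Adar had 56.8 to 65.1 CPM (median 58.0) in the 6 trap control and 43.5 to 58.3 (median 47.5) in the 10 isotype control tumors. All 6 trap control libraries exceeded the isotype control median, with a slight overlap, and the log2 fold change was 0.25 (SE 0.07, adjusted p = 0.0384). Trex1, whose reads may belong to Atrip, had 4.72 to 6.09 CPM (median 5.34) against 2.87 to 4.76 (median 3.97), a log2 fold change of 0.44 (SE 0.12, adjusted p = 0.0347). The calls were fragile. Adar was lost without any 1 of 12 libraries (C0449 to C0453, C0455, C0456, C0459 to C0462 and C0464; adjusted p 0.0508 to 0.0910), and Trex1 without any 1 of C0453, C0454, C0460, C0461, C0462 and C0464 (0.0542 to 0.0712).

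Next in order were Mx2 with a log2 fold change of 0.67 (SE 0.22, adjusted p = 0.0707), Pml with 0.19 (SE 0.07, adjusted p = 0.0771) and Mx1 with 0.65 (SE 0.23, adjusted p = 0.0821). Mx2 stood at 4.87 to 12.2 CPM (median 7.64) in trap control and 2.53 to 7.20 (median 5.28) in isotype control tumors. Without C0463, the library with 7253 CPM of muscle markers, 6 members were called, against 2.22% of all genes: Trex1 (0.47, adjusted p = 0.0393), Isg15 (0.47, 0.0421), Oas3 (0.62, 0.0454), Helz2 (0.47, 0.0455), Adar (0.26, 0.0498) and Cmpk2 (0.68, 0.0498). The count was 0 without any 1 of C0453, C0460, C0461, C0462 and C0464, and 1 or 2 without any other library.

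Comparisons across the sets needed the set as a term, estimated from the 6 and 4 trap control libraries. Bifunctional tumors against isotype control gave no called member, with 0.909% of all genes called higher and 1.48% lower; 44 of 47 log2 fold changes lay above 0, with a median of 0.30 against 0.07 over all genes. By unadjusted p under 0.05 edgeR found 7 members higher and 0 lower, against 11.7% and 9.21% of all genes. Only the share that was higher lay near that of all genes. DESeq2 called none of the members. Without C0479 and C0484 no member was called, with 0.0939% of all genes called higher and a member median of 0.23. Without C0463 none was called either, with 1.42% of all genes called higher and a member median of 0.37. The smallest adjusted p belonged to Mx2 (0.89, SE 0.36, 0.137), followed by Sp100 (0.51, SE 0.21, 0.148), Trex1 (0.50, SE 0.21, 0.149), Oas2 (1.00, SE 0.41, 0.150) and Adar (0.29, SE 0.12, 0.167). The standard errors exceed those within set 2, and the CPM levels of the 2 groups are not comparable without the term: Mx2 had a mean of 5.12 CPM in bifunctional and 5.14 in isotype control tumors.

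Anti-PD-L1 against isotype control, with the same term, gave no called member either (0.00618% of all genes called higher and as many lower). The median log2 fold change was -0.16, against 0.01 over all genes, and 11 of 47 lay above 0. By unadjusted p under 0.05 edgeR found 2 members lower and 0 higher, against 5.09% and 4.65% of all genes. Here the share that was lower lay near that of all genes. DESeq2 called none of the members. Without C0463 no member was called and the median was -0.07. The members with the smallest adjusted p were Ifi204 (-0.45, SE 0.18, 0.447), Ifi203 (-0.36, SE 0.15, 0.448), Ifi44 (-0.58, SE 0.33, 0.576), Phf11d (-0.47, SE 0.29, 0.610) and Ifi35 (0.26, SE 0.18, 0.636).

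**Figure D4:**
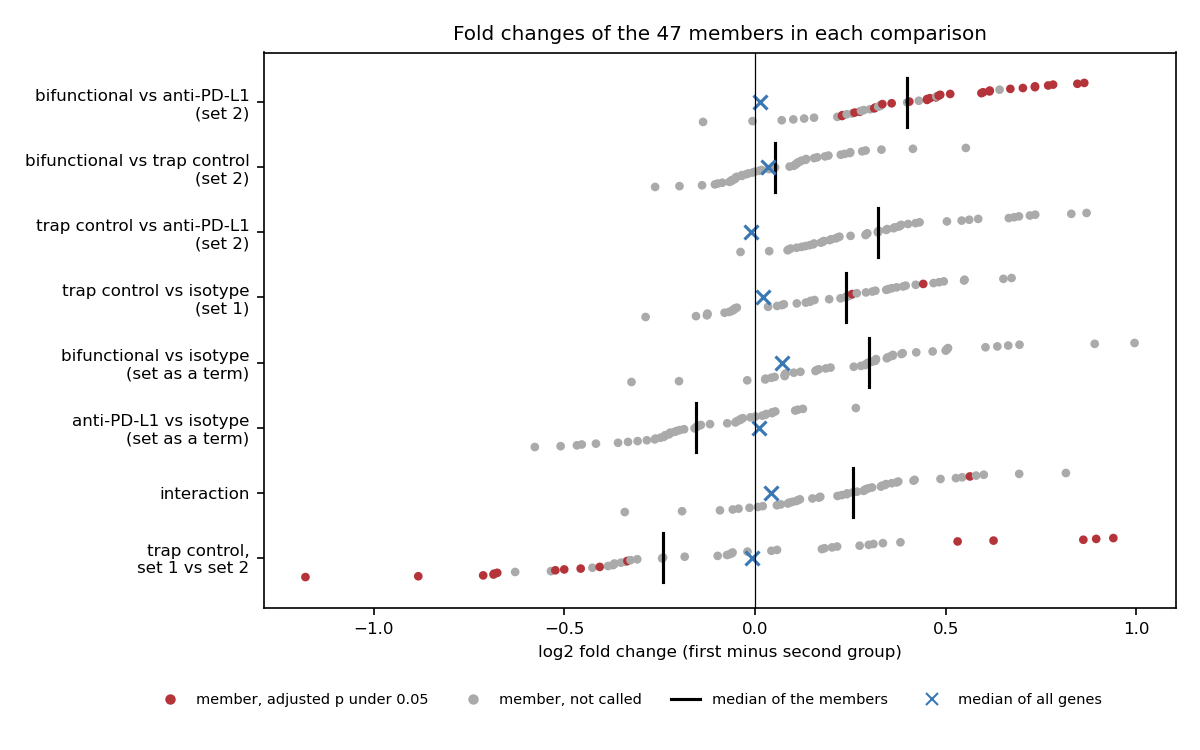
Log2 fold changes (x axis) of the 47 members in each comparison (y axis); each dot is a member, red where the adjusted p is under 0.05. Black lines give the median of the members and blue crosses the median of all genes tested. The members lie furthest to the right in bifunctional against anti-PD-L1, with a median of 0.40.

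An interaction asked whether the difference made by the trap depended on PD-L1 blockade: the difference between bifunctional and anti-PD-L1 in set 2, less the difference between trap control and isotype control in set 1. It was called for 1 of 47 members, Ifi203, with 3.96% of all genes called higher and 3.95% lower. The share of members called was not above that of all genes. The median over the members was 0.26, against 0.04 over all genes, and 41 of 47 lay above 0. For Ifi203 the first difference was 0.40 in the fit of set 2 and the second -0.13 (SE 0.10, adjusted p = 0.456) in the fit of set 1, and the interaction in the fit of all 40 libraries was 0.56 (SE 0.13, adjusted p = 0.0112). It was 0.50 (adjusted p = 0.03265) without C0479 and C0484 (1.41% of all genes called higher) and 0.52 (adjusted p = 0.0250) without C0463 (3.2%), and it was not called in limma on log2(TPM + 1), at 0.65 (adjusted p = 0.108). The other 46 members did not pass, with Ifi204 next at 0.42 (SE 0.16, adjusted p = 0.0934), then Trim30a (0.58, SE 0.24, 0.118), Ifi44 (0.69, SE 0.29, 0.124) and Phf11d (0.60, SE 0.26, 0.132). A second call appeared without C0455 (Ifi204, 0.47, adjusted p = 0.0466) and without C0462 (Phf11d, 0.81, adjusted p = 0.0482). Each arm of this contrast lies in its own set, so a set effect that differs between treatments cannot be told apart from the interaction.

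The size of the set difference was measured in the trap control, the same treatment in both sets. Of 47 members 5 were higher and 11 lower in set 1, against 25.6% and 24.3% of all genes. Without C0463 the counts were 6 and 11, against 25.2% and 24.4%. Isg15 was 0.94 higher (SE 0.24, adjusted p = 0.00165), but its difference was -0.35 in limma on log2(TPM + 1), a scale on which the all-gene median was -0.55. Trex1 was lower (log2 fold change -0.88, SE 0.17, adjusted p = 3.92e-05) and Parp9, Oas1a and Ifit2 had log2 fold changes of -0.52, -0.69 and -0.68. Isg15 ran from 15.9 to 32.6 CPM in the trap control tumors of set 1 and was 8.26, 14.1, 16.8 and 19.5 CPM in those of set 2. These differences are as large as those between treatments, which is why levels are compared inside a set.

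Per transcript length the members spanned a wide range. On the TPM scale, in anti-PD-L1 tumors, Ifi27l2a had the highest median level at 26.9, followed by Bst2 at 17.5 and Lgals3bp at 15.1, and Mx2 had the lowest at 0.565, below Oas2 at 0.75 and Mx1 at 0.765. Neighbours in this order overlapped: Bst2 ran from 7.99 to 28.7 TPM and Lgals3bp from 11.1 to 20.7. The members with the largest log2 fold changes against anti-PD-L1, Ifit3b, Oas2, Mx1 and Irf7, held the ranks 44, 46, 45 and 10 of 47 in level.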

How the data were processed

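Bulk RNA of 40 EMT-6 tumors was analysed, 1 library per mouse, so p-values measure the spread between mice. Per the labels, libraries were made by ribosomal depletion and random priming. The tools RSEM 1.2.31 and Bowtie2 2.3.1 and the build mm10 come from the submitters' processing notes, without role or order; the annotation, filters and strand are not given in the sources used here. The authors deposited expected counts and TPM for 39012 Ensembl genes, and the columns used were matched to the 40 samples by title. Of the expected count values, 14.0% were not whole, and they were rounded. The deposited TPM values sum to nearly the same total in each library, divide by length and keep no depth. IDs were matched to GENCODE M21 symbols (37607, or 96.4%), and Cgas is listed there for the older symbol Mb21d1.

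Tests used edgeR 4.0.16 in R 4.3.3 (quasi-likelihood, two-sided, TMM, default filter on low counts, Benjamini-Hochberg over all genes kept, threshold 0.05). Set 2 was 1 fit of 24 libraries, set 1 a fit of 16, and comparisons across sets used 1 fit of all 40 with a mean for each of 5 combinations of group and set. CPM values are TMM-scaled over all libraries. Depth per library was 13495835 to 27658263 counts. Alternatives were DESeq2 1.42.0, its size factors, all genes unfiltered, only genes averaging 1 CPM or more, limma 3.58.1 on log2(TPM + 1) and log2(TPM + 0.1), host tissue scores or structural RNA share as covariates, other choices of libraries, and leaving out each library, the last in part chosen after seeing the data. Tested on simulated data, 91% of genes changed by a log2 fold of 0.75 were recovered among 15551 genes in the set 2 comparison of bifunctional with anti-PD-L1. Of the genes called there, 5.5% had not been changed. Only genes above a minimum level were changed. Smaller changes, and shifts that many genes share within a library, were not simulated. Motifs were searched with Python 3.11.15 in RefSeq windows of GRCm38.p6, where 35 of 47 members matched.

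The members and lists were chosen with earlier results of these data known. Named with full values are the transcription factors and, in each functional group, up to 3 members with the smallest and up to 3 with the largest adjusted p in bifunctional against anti-PD-L1; in other comparisons, the 5 smallest. Further members are named to account for all calls. Ifna6, Ifna7, Ifna11, Ifnab, Gbp5 and Gbp6 were not analysed here, and 1 gene of the signaling list is not reported here.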

Additional observations from a re-analysis of the deposited data

Results flagged for a closer look

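Single libraries stood far from the rest of their group, by Dixon's criterion at 95%, in 9 of the 235 combinations of member and group tested; chance alone gives about 1 in 20. In bifunctional tumors C0484 was far above the others for Oasl1 (28.9 CPM, group median 19.3), Mx1 (15.8, median 6.66) and Cmpk2 (29.3, median 20.8). In the trap control tumors of set 2 C0465 was far above for Bst2 (56.5 CPM, median 26.9) and Xaf1 (19.1, median 10.8). C0455 was far below the other isotype control libraries for Rtp4 (5.41 CPM, median 12.7) and Ifi204 (37.96, median 55.9). For Isg15, C0470 was far below the other anti-PD-L1 libraries (4.59 CPM, median 10.98) and C0463 below the other trap control libraries of set 1 (15.9, median 29.9).

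The interaction of trap and PD-L1 blockade for Ifi203 was 0.56 on the log2 scale (edgeR adjusted p = 0.0112). Ifi203 was the only member called, while 3.96% of all genes were called higher and 3.95% lower. The share of members called was not above these shares. Limma did not call Ifi203 on log2(TPM + 1) or log2(TPM + 0.1), with adjusted p of 0.108 and 0.129. The 2 arms of this contrast lie in different library sets.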

How the results depend on the processing

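In bifunctional against anti-PD-L1, 28 members were called higher, against 12.4% of all genes. Limma on TPM called 43 with either pseudocount. The median of all genes was then 0.15 with log2(TPM + 1) and 0.27 with log2(TPM + 0.1). On these scales 3043 and 3112 of all 15704 genes were called higher, and 43 and 46 lower. Host tissue covariates left 5 calls (1.54% of all genes called higher), and leaving out C0479 and C0484 left 8 (1.87%). Without 1 library the count was 18 to 32. In trap control against isotype control, 2 calls became 0 with no filter, 0 with either TPM scale, 0 with host tissue covariates and 4 with DESeq2. Of all genes, 162 of 27097 were called higher with no filter, 1 of 14183 on either TPM scale and 94 with host tissue covariates. DESeq2 called 754 of all 14183 genes higher and 959 lower. Without 1 library the count of members was 0 to 6. The 1 interaction call became 0 on either TPM scale, where 51 and 28 of all 16174 genes were called higher and 8 and 5 lower. Without 1 library the count of interaction calls was 1 to 2. Between the sets, 16 calls became 42 on either TPM scale (median of all genes -0.55 and -1.01). They became 5 with the structural RNA share as a covariate. Of all 16174 genes, 344 and 352 were called higher and 10670 and 11307 lower on the TPM scales. With the structural RNA share 2011 genes were higher and 1521 lower. Without 1 library the member calls were 12 to 19. The remaining comparisons had 0 calls under every alternative run. The cause of these shifts was not tested.

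The sign turned for 3 named results. Ifi35 in bifunctional against anti-PD-L1 was 0.14 with log2(TPM + 1) and 0.16 with log2(TPM + 0.1). Eif2ak2 was 0.28 and 0.31 on those scales, 0.018 with DESeq2 and with its size factors, 0.04 with a mean of at least 1 CPM, 0.03 with the structural RNA share, 0.012 without C0479 and C0484, 0.016 with only the 2 groups, and 0.03 with all 40 libraries by 5 means (0.026) or 4 means (0.031); without 1 library it ran from -0.025 to 0.041. Isg15 between the sets was -0.35 and -0.39 on the TPM scales. No paired analysis was possible because the labels give no replicate numbers that groups share.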
